A study of Homo sapiens with 34 samples.

Results

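The genes described here are 38 genes of mitosis and of the passage from G2 phase into mitosis (G2/M), followed across 34 RNA sequencing libraries. The list was drawn up by known function, with earlier results of these data already known. They were 38 of 29324 genes with an intron event in the deposited junction table, and all 38 were among the 12081 genes that passed the filter on low counts. The libraries were made from hTERT RPE-1, a telomerase-immortalised human cell line derived from retinal pigment epithelium. Cells carried hybrid guide RNAs (hgRNAs), transcripts that join a Cas9 guide to a Cas12a guide so that both nucleases can cut in the same cell, and each of 17 hgRNA groups had 2 libraries, described as biological duplicates. The design set cells with intronic deletions or gene knockouts against cells cut between genes.

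The deletion groups comprised an HDAC7 deletion spanning a PTC exon (an exon that brings in a premature stop codon, hgRNAs 1 and 2), a DDX17 deletion spanning a PTC exon (hgRNAs 1 and 2) and an intronic HNRNPD deletion (1 hgRNA). They also comprised an intronic DDX5 deletion (hgRNAs 1 and 2), an intronic FNBP4 deletion (hgRNAs 1 and 2) and an FNBP4 deletion spanning a PTC exon (hgRNAs 3 and 4). Libraries labelled knockout of DDX5, DDX17, FNBP4 or HDAC7 carried an exonic Cas9 guide from the TKOv3 library together with an intergenic Cas12a guide, with 2 libraries each. The controls carried intergenic guides for both nucleases (hgRNAs 1 and 2, 4 libraries). Cells were transduced by lentivirus, selected with puromycin and grown on before harvest; the labels mention no isolation of clones and do not state the edited fraction. Both HDAC7 deletion hgRNAs carry the same Cas9 guide, as do FNBP4 hgRNAs 2 and 3. The labels also give the same Cas9 guide for the HDAC7 knockout and the FNBP4 knockout, and list that guide again as the Cas12a guide of the HDAC7 knockout, so the identity of those 2 edits rests on the labels alone.

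Cells enter mitosis when CDK1 bound to a B-type cyclin is activated by CDC25 phosphatases and by the kinases PLK1 and AURKA. Chromosomes then attach to the spindle at kinetochores under the watch of the spindle checkpoint, and the anaphase-promoting complex with its activator CDC20 ends mitosis by marking cyclin B and securin for destruction. Most of these genes are transcribed in G2 phase and mitosis by the MuvB complex with B-MYB and FOXM1, through CCAAT boxes and a motif called the cell cycle genes homology region, so their RNA in an unsynchronised culture follows the share of cells in those phases as well as the amount of RNA per cell. In bulk libraries such as these, fewer cells in a phase and less RNA per cell cannot be told apart.

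Expression was measured as reads across spliced junctions, summed per gene and given as CPM, counts scaled to a common library total after normalisation for composition. Libraries held between 12353936 and 20233610 such reads. In libraries labelled knockout the targeted gene had 133 and 167 CPM for DDX5, against 521 to 586 CPM in controls, and 285 and 330 CPM for DDX17, against 396 to 433 CPM in controls. FNBP4 had 22.3 to 44.3 CPM in libraries labelled FNBP4 knockout and 34.1 to 44.4 CPM in controls, and HDAC7 had 179 to 180 CPM in libraries labelled HDAC7 knockout and 176 to 244 CPM in controls. Junction reads away from the cut site do not report a frameshift, so these values check neither label. Among the deletions, FNBP4 had 106 to 158 CPM in its PTC exon deletion and 46.8 to 51.8 CPM in its intron deletion, both above every control, and DDX5 had 389 to 420 CPM in its deletion, below every control. The other deletions overlapped the controls in the level of the edited gene, with 142 to 244 CPM of HDAC7 in the HDAC7 deletion, 406 to 448 CPM of DDX17 in the DDX17 deletion, and 247 and 318 CPM of HNRNPD in the HNRNPD deletion against 207 to 253 CPM in controls. Of 12 listed markers of differentiated retinal pigment epithelium, TYR was at 0 in all 34 libraries, RPE65 (at most 0.368 CPM), RLBP1, BEST1, TYRP1, LRAT and TTR stayed at or under 0.602 CPM, and PMEL and SERPINF1 reached 1.22 and 2.47 CPM. The other 3 were expressed, with MITF at 9.14 to 24.1 CPM, RDH5 at 8.22 to 34 CPM and OTX2 at 1.86 to 8.07 CPM. KRT18 ranged from 279 to 696 CPM and VIM from 6520 to 10600 CPM. The 8 markers of other cell types reached at most 1.1 CPM (PTPRC). Some libraries stood apart: DDX17 deletion hgRNA 1 replicate 2 and HDAC7 deletion hgRNA 1 replicate 2, with exon-intron shares of 3.04% and 2.77% against at most 2.21% in the other libraries of those edits, control hgRNA 1 replicate 2 with 2.57% against at most 2.32% in the other controls, replicate 1 of every knockout with 0.965 to 1.21% against 1.92 to 2.29% in replicate 2, and FNBP4 PTC exon deletion hgRNA 3 replicate 1, in which many of the genes were high.

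All 38 genes were expressed in the control cells. In the authors' deposited table, which scales by transcript length and allows genes to be compared, control levels ran from 2.70 RPKM for CDC25C, a phosphatase that activates CDK1, to 71.7 RPKM for PRC1, which bundles microtubules of the spindle midzone, with a median of 20.6 RPKM.

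The promoters of 6 genes called below are shown with their matches to the motifs through which the G2/M programme is known to be transcribed. RefSeq promoters on GRCh38.p14 were matched for 32 of 38 genes, 42 promoters in all, and the 250 bases before each start were searched on both strands for CCAAT and for TTTGAA, the core of the cell cycle genes homology region (ATTGG and TTCAAA on the other strand). Matches of both motifs can share bases at their ends. CCAAT occurred in 31 of 42 promoters (73.8%), against 32% of 35116 RefSeq promoters. TTTGAA occurred in 20 of 42 (47.6%), against 13.3% of all promoters, and 17 of 42 (40.5%) held both, against 4.69%. The 180 bases before the start are printed 5′ to 3′ on the strand of the gene, with matches to either motif in capitals, for CCNB2 (chr15:59104966-59105145, plus strand), CCNA2 (chr4:121823884-121824063, minus strand), BUB1 (chr2:110678064-110678243, minus strand), NUSAP1 (chr15:41332701-41332880, plus strand), CENPA (chr2:26785876-26786055, plus strand) and TOP2A (chr17:40417897-40418076, minus strand). All 6 hold CCAAT, while CCNA2, BUB1 and NUSAP1 have no TTTGAA in the 250 bases searched, which says only that these letters are not there.
CCNB2: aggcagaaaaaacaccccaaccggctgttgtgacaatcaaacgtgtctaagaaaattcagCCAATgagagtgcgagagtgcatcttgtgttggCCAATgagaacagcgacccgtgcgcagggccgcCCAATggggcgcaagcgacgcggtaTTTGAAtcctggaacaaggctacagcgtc
CCNA2: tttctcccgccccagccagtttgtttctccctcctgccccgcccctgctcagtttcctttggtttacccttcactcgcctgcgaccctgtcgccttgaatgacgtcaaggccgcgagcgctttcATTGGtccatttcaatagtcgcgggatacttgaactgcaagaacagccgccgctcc
BUB1: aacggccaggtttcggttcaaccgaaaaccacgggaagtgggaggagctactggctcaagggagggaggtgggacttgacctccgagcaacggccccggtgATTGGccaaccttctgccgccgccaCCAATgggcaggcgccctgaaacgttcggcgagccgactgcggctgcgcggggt
NUSAP1: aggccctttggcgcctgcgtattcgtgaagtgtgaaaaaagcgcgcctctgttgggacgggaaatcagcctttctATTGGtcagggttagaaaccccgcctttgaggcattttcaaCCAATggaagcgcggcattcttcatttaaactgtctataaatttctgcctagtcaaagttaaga
CENPA: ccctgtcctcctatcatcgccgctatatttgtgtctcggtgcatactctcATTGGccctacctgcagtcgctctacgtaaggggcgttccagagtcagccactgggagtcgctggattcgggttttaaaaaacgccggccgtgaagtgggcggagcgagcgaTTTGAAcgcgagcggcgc
TOP2A: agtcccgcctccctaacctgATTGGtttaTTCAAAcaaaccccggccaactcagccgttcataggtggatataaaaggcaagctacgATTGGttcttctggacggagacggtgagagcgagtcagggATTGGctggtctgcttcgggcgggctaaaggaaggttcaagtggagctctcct
A match describes the letters of the window and is neither a binding site nor a cause of a change. CCNB2 held 3 CCAAT matches and 1 TTTGAA match in the printed window and TOP2A 3 and 1, while BUB1 had 2 CCAAT matches and no TTTGAA match there.

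Summed over the 38 genes, expression was lowest in the HDAC7 deletion and next lowest in the DDX17 deletion. The sum was 2050 to 2633 CPM in the 4 HDAC7 deletion libraries and 2368 to 2923 CPM in the 4 DDX17 deletion libraries, against 3025 to 3414 CPM in the 4 controls. Neither deletion overlapped the controls, and the 2 HNRNPD deletion libraries, at 2733 and 2757 CPM, and the 2 DDX5 knockout libraries, at 2526 and 2943 CPM, also lay below them. Both DDX17 knockout libraries (3543 and 3874 CPM) lay above the controls, and of the libraries labelled HDAC7 knockout 1 lay within their range and 1 above it (3337 and 3876 CPM). The DDX5 deletion (2927 to 3623 CPM), the FNBP4 intron deletion (3199 to 3675 CPM), the FNBP4 PTC exon deletion (3073 to 3916 CPM) and the FNBP4 knockout (3064 and 3129 CPM) overlapped the controls. The lowest sums of the HDAC7 and DDX17 deletions came from the hgRNA 1 replicate 2 libraries with high exon-intron reads, and without these the ranges were still below the controls.

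**Figure D1:**
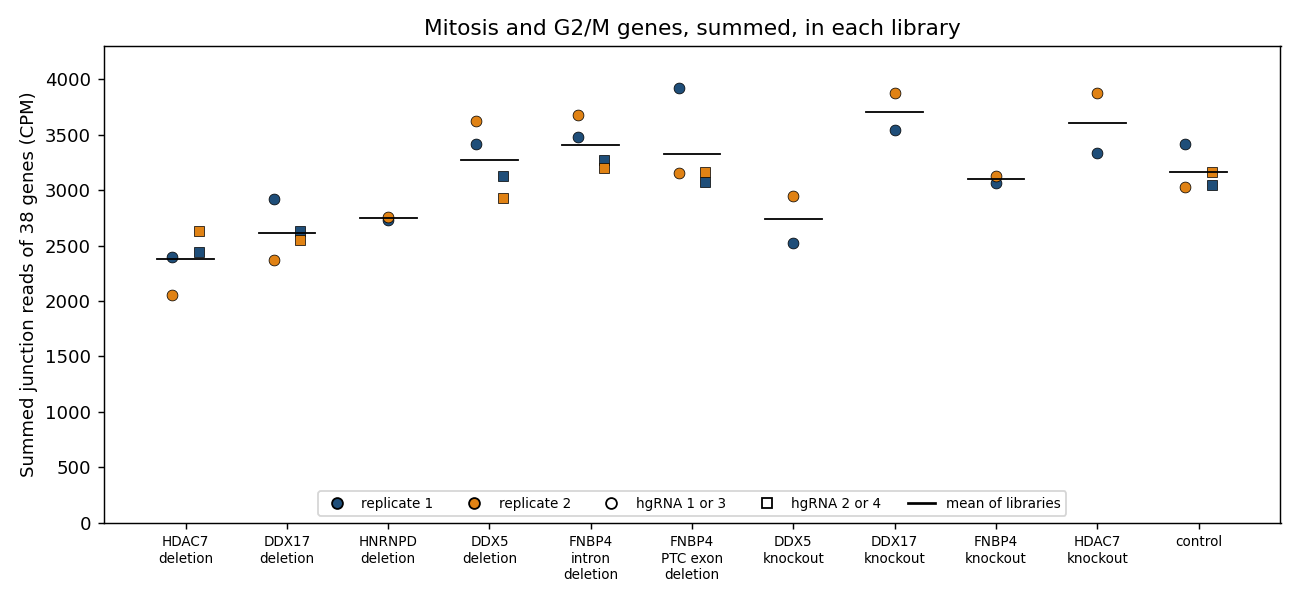
Summed expression of the 38 genes in CPM (vertical axis) for each library, grouped by edit with the controls at the right; colours mark replicates 1 and 2, symbols the hgRNA, and black lines the mean of a group. All 4 HDAC7 deletion libraries (2050 to 2633 CPM) and all 4 DDX17 deletion libraries (2368 to 2923 CPM) lie below the controls (3025 to 3414 CPM).

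In the HDAC7 deletion 17 of the 38 genes fell and none rose, relative to controls, at an adjusted p under 0.05 in limma, with p-values adjusted over all 12081 genes by the Benjamini-Hochberg method. Over all genes tested 0.861% were called lower in this comparison and 1.04% higher. All 38 log2 changes were negative, with a median of -0.47 against -0.00 for all genes, and in 29 of 38 genes every deletion library lay below every control, as for 4.74% of all genes. The controls are shared by all comparisons with them, so the comparisons are not independent.

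Of the genes of entry into mitosis 6 of 9 fell. CCNB2, a B-type cyclin that activates CDK1, had 35.7, 23.3, 32.9 and 39.01 CPM in the HDAC7 deletion, against 59.4, 48.1, 53.0 and 53.0 CPM in controls, a log2 change of -0.72 ± 0.14 (SE; adjusted p = 0.00605, limma). The groups did not overlap, and the lowest value was that of hgRNA 1 replicate 2. CCNA2, the cyclin of S and G2 phase, averaged 24.7 ± 1.88 CPM in the deletion and 37.6 ± 3.72 CPM in controls (SD, n = 4 each; log2 change -0.60, adjusted p = 0.00792, limma). CDK1, the kinase that drives mitosis, had 17.02, 13.8, 18.6 and 18.1 CPM in the deletion, against 26.2, 24.5, 22.4 and 27.6 CPM in controls. FOXM1, a transcription factor of the G2/M programme, had 29.6, 21.2, 21.3 and 30 CPM in the deletion, against 39.8, 37.7, 37.5 and 36.1 CPM in controls. Neither gene overlapped its controls, with log2 changes of -0.58 in each (adjusted p of 0.00605 for CDK1 and 0.00634 for FOXM1, limma). CCNB1, the principal mitotic B-type cyclin, fell by less, with 66.6, 62.6, 63.0 and 65.4 CPM in the deletion, against 90.4, 87.5, 78.6 and 82.3 CPM in controls (log2 change -0.39 ± 0.08 SE, adjusted p = 0.00724, limma). AURKA, a centrosomal kinase, was the remaining called gene of this role (log2 change -0.55). PLK1, the kinase that promotes entry and spindle assembly, was not called, although its 56.4 to 68.0 CPM in the deletion lay below the 71.9 to 84.8 CPM of controls (log2 change -0.32, adjusted p = 0.122, limma).

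Among the genes that guard and end metaphase, 1 of 4 spindle checkpoint genes and 2 of 3 genes of anaphase control fell in the HDAC7 deletion. BUB1, a checkpoint kinase, had 62.5, 42.7, 50.6 and 60.6 CPM in the deletion, against 90.2, 72.9, 80.0 and 82.2 CPM in controls (log2 change -0.60 ± 0.12 SE, adjusted p = 0.00985, limma). UBE2C, the ubiquitin-conjugating enzyme of the anaphase-promoting complex, had 38.4, 39.5, 33.1 and 36.6 CPM in the deletion, against 55.3, 55.5, 52.8 and 47.0 CPM in controls (log2 change -0.51 ± 0.09 SE, adjusted p = 0.00504, limma). UBE2C had the smallest adjusted p of the 38 genes, and all 4 deletion libraries were alike, hgRNA 1 replicate 2 included. CDC20 averaged 73.6 ± 6.56 CPM in the deletion and 101 ± 7.64 CPM in controls (SD, n = 4 each; log2 change -0.45). TTK, the checkpoint kinase also called MPS1, had a similar log2 change of -0.59 that was not called (adjusted p = 0.135, limma), and its hgRNA 1 replicate 2 value of 15.9 CPM stood below the 25.8 to 27.0 CPM of the other deletion libraries.

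Structural genes of the spindle and kinetochore also fell in part. Of 5 centromere and kinetochore genes NDC80 and NUF2, partners in the complex that binds microtubule ends, fell (log2 changes -0.50 and -0.57). Of 5 kinesins KIF11, the motor that pushes spindle poles apart, fell to 76.8, 55.6, 80.7 and 89.2 CPM in the deletion, against 122, 97.9, 108 and 122 CPM in controls, and KIF23 and KIF20A, motors of the midzone, fell as well (log2 changes -0.59, -0.47 and -0.42). NUSAP1, a spindle-associated microtubule protein, averaged 28.7 ± 5.91 CPM in the deletion and 43.7 ± 4.54 CPM in controls (SD, n = 4 each; log2 change -0.62, adjusted p = 0.0418, limma) and was the only called gene of 5 spindle and midzone genes. ANLN, the scaffold of the cleavage furrow, was called among 2 cytokinesis genes (log2 change -0.43). TOP2A, which untangles chromosomes, had 299, 231, 319 and 336 CPM in the deletion, against 449, 401, 409 and 430 CPM in controls, without overlap (log2 change -0.53, adjusted p = 0.0141, limma). MKI67, the proliferation marker Ki-67, had 83.4, 48.2, 74.3 and 95.7 CPM in the deletion and 103, 75.5, 96.3 and 95.9 CPM in controls and was not called. None of the 3 chromosomal passenger genes AURKB, BIRC5 and CDCA8 passed the test (log2 changes -0.25, -0.53 and -0.53).

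The 17 calls depended on which libraries entered. Without hgRNA 1 replicate 2, which stands apart in exon-intron reads, 4 genes were called, and without hgRNA 2 replicate 1 also 4. Without a control library the count was 6 (hgRNA 1 replicate 1), 10 (hgRNA 2 replicate 1) or 7 (hgRNA 2 replicate 2). Leaving out control hgRNA 1 replicate 2 or deletion hgRNA 2 replicate 2 lowered the count less, and leaving out deletion hgRNA 1 replicate 1 raised it. The fit restricted to the HDAC7 deletion and control libraries called 0 of the 38 genes, and over all its genes it called 1. The contrast with control hgRNA 2 alone called 0 of the 38 and 34 over all genes, where the reported fit called 230 over all genes. In each of these settings all 38 changes stayed negative and the median was between -0.53 and -0.39 in those that left out a library. All 38 were also negative, with a median of -0.45, when replicate 2 of hgRNA 1 was left out of the control, the DDX17 deletion and the HDAC7 deletion together. By hgRNA, hgRNA 1 had 12 genes lower, with a median of -0.56 (0.513% of all genes were called lower and 0.563% higher), and hgRNA 2 had 1, UBE2C, with a median of -0.37 (0.132% lower and 0.273% higher).

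**Figure D2:**
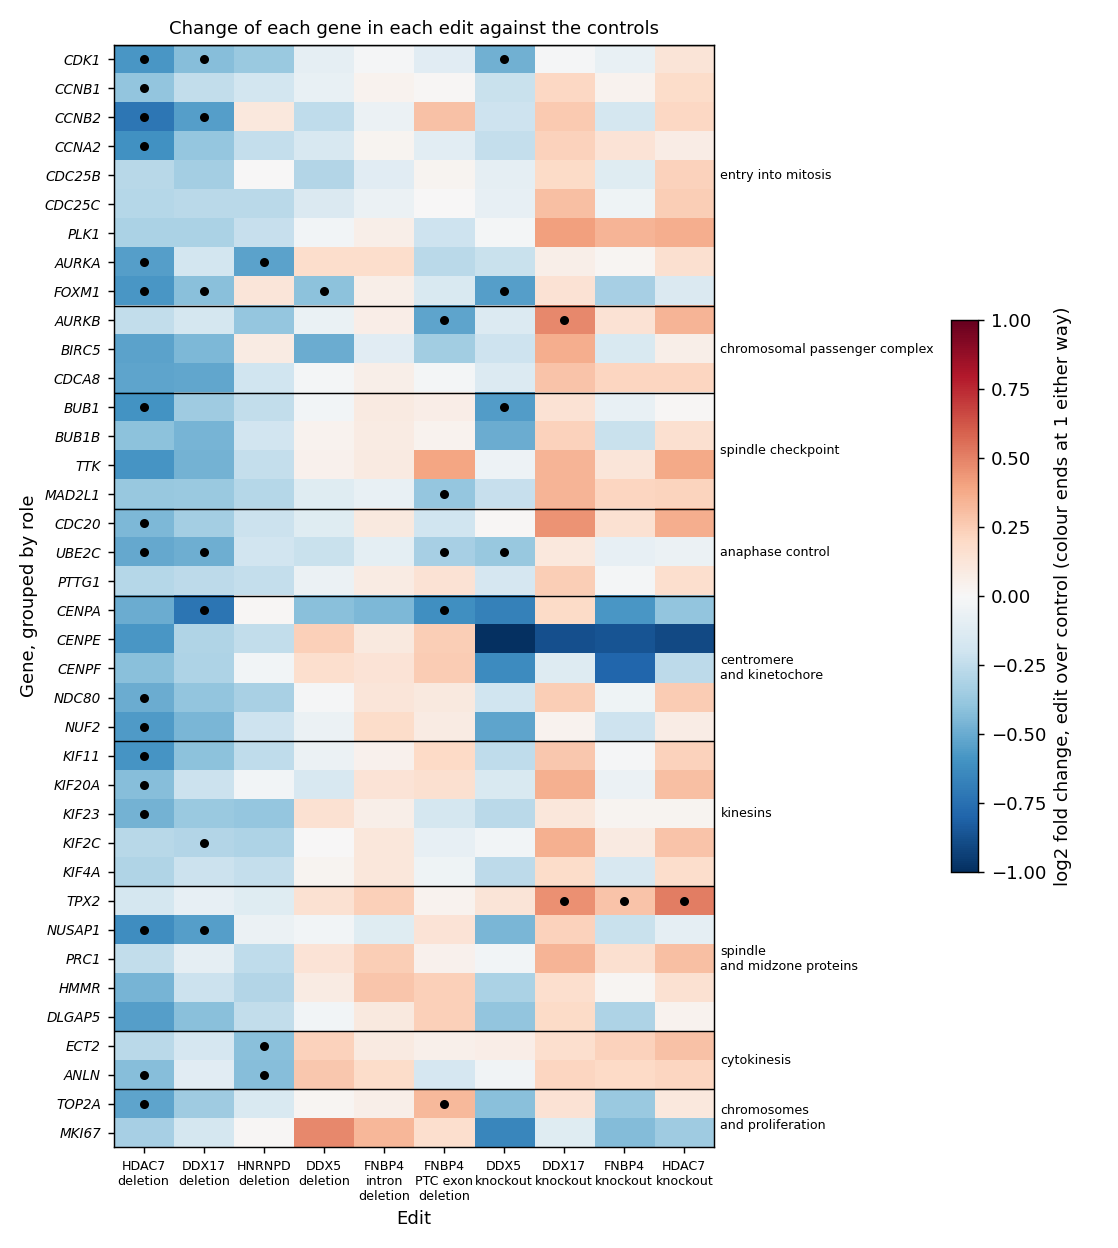
Log2 fold change of each of the 38 genes (rows, grouped by role) in each of 10 edits against the controls (columns); blue is lower and red higher in the edit, and a dot marks an adjusted p under 0.05 in limma. The HDAC7 deletion column is blue throughout with 17 dots and the DDX17 deletion column blue throughout with 7.

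The DDX17 deletion gave a smaller change in the same set, with 7 genes lower and none higher than controls. Over all genes 2.72% were called lower and 2.27% higher. All 38 changes were negative with a median of -0.35, and 15 genes had no overlap with the controls, against 6.17% of all genes. CENPA, the histone variant that marks the centromere, had 4.50, 4.62, 3.97 and 4.33 CPM in the deletion, against 8.25, 7.59, 6.40 and 6.85 CPM in controls (log2 change -0.73 ± 0.18 SE, adjusted p = 0.0172, limma). All 4 deletion libraries were below all controls. CCNB2 had 43.0, 26.2, 39.3 and 37.7 CPM in the deletion, with a log2 change of -0.55 against controls (adjusted p = 0.0198, limma). UBE2C had 40.4, 39.5, 34.8 and 35.1 CPM in the deletion, below every control, with a log2 change of -0.49 ± 0.09 (SE; adjusted p = 0.00341, limma). NUSAP1 averaged 30.3 ± 9.02 CPM in the deletion and 43.7 ± 4.54 CPM in controls (SD, n = 4 each), with 17.3 CPM in hgRNA 1 replicate 2 and 32.1 to 38.1 CPM in the others. CDK1 and FOXM1 each fell by 0.42 on the log2 scale. KIF2C, a microtubule-depolymerising kinesin, fell by 0.29, with overlapping ranges.

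By role, the calls of the DDX17 deletion were 3 of 9 genes of entry into mitosis, 1 of 3 of anaphase control and 1 of 5 each of centromere, kinesin and spindle genes, and none of the passenger, checkpoint, cytokinesis or chromosome genes. CCNB1 (65.0 to 82.3 CPM in the deletion, 78.6 to 90.4 CPM in controls), PLK1 (54.6 to 70.8 CPM against 71.9 to 84.8 CPM), TOP2A (287 to 369 CPM against 401 to 449 CPM) and MKI67 (54.0 to 105 CPM against 75.5 to 103 CPM) did not pass the test. By hgRNA the median was -0.38 for hgRNA 1, with 0 genes called by limma and 18 lower at an unadjusted p under 0.05 (0.778% of all genes were called lower and 1.05% higher). It was -0.36 for hgRNA 2, with KIF2C and UBE2C called (1% lower and 0.944% higher). Over all genes the reported fit of this deletion called 602. The fit restricted to its libraries and the controls called 31 over all genes, and the contrast with control hgRNA 2 alone called 83. Without hgRNA 1 replicate 2, the shallowest library and one with high exon-intron reads, 5 genes were called, 36 of 38 changes were negative and the median was -0.27. Leaving out either hgRNA 2 library left 1 call, leaving out a control library left 2 to 4, and leaving out hgRNA 1 replicate 1 gave 17, while the fit restricted to these libraries and the controls and the contrast with control hgRNA 2 alone each called 0.

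The deletions were then set directly against the libraries labelled knockout of the same gene, with the controls cancelling. In these contrasts the type of edit cannot be told apart from any other difference that the knockout libraries share. Differences between replicates correlated at 0.45 to 0.66 among the knockouts. Between the HDAC7 deletion and HDAC7 knockout 26 of 38 genes were lower in the deletion and none higher (3.04% of all genes were called lower and 2.98% higher), with a median of -0.59. In 33 genes every deletion library lay below both knockout libraries, as in 14.8% of all genes. TTK averaged 23.8 ± 5.34 CPM in the deletion and 45.9 ± 3.16 CPM in the knockout (SD, n = 4 and 2; log2 change -0.97, adjusted p = 0.0211, limma). CCNB2 had 23.3 to 39.01 CPM in the deletion, against 62.5 and 60.2 CPM in the knockout (log2 change -0.93, adjusted p = 0.00289, limma). CDC20 had 78.7, 70.8, 65.7 and 79.3 CPM in the deletion, against 142 and 117.5 CPM in the knockout, and KIF11 averaged 75.6 ± 14.3 CPM in the deletion and 132 ± 22.6 CPM in the knockout, each with a log2 change of -0.81.

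Between the DDX17 deletion and DDX17 knockout 29 of 38 genes were lower in the deletion and none higher (4.56% of all genes were called lower and 4.31% higher), with a median of -0.57. In 31 genes all deletion libraries lay below both knockout libraries, as in 15.3% of all genes. CENPA averaged 4.35 ± 0.28 CPM in the deletion and 8.29 ± 0.83 CPM in the knockout (SD, n = 4 and 2; log2 change -0.93, adjusted p = 0.00752, limma). CCNB2 (36.6 ± 7.26 CPM in the deletion, 64.1 ± 8.42 CPM in the knockout), TTK (25.7 ± 7.19 CPM against 44.7 ± 0.89 CPM) and CDCA8, a passenger complex subunit (19.7 ± 4.34 CPM against 34.4 ± 0.87 CPM), had log2 changes between -0.82 and -0.81.

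In both contrasts the 3 longest transcripts, CENPE, CENPF and MKI67, were not called. Without the 4 knockout replicate 1 libraries, a setting chosen after seeing the data, 11 genes were called lower in the HDAC7 contrast and 13 in the DDX17 contrast, and the fits restricted to their own libraries and the controls called 8 and 5. The HDAC7 contrast had 9 calls without knockout replicate 1 and 15 without replicate 2, and the DDX17 contrast had 8 and 13, and 18 without deletion hgRNA 2 replicate 2.

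**Figure D3:**
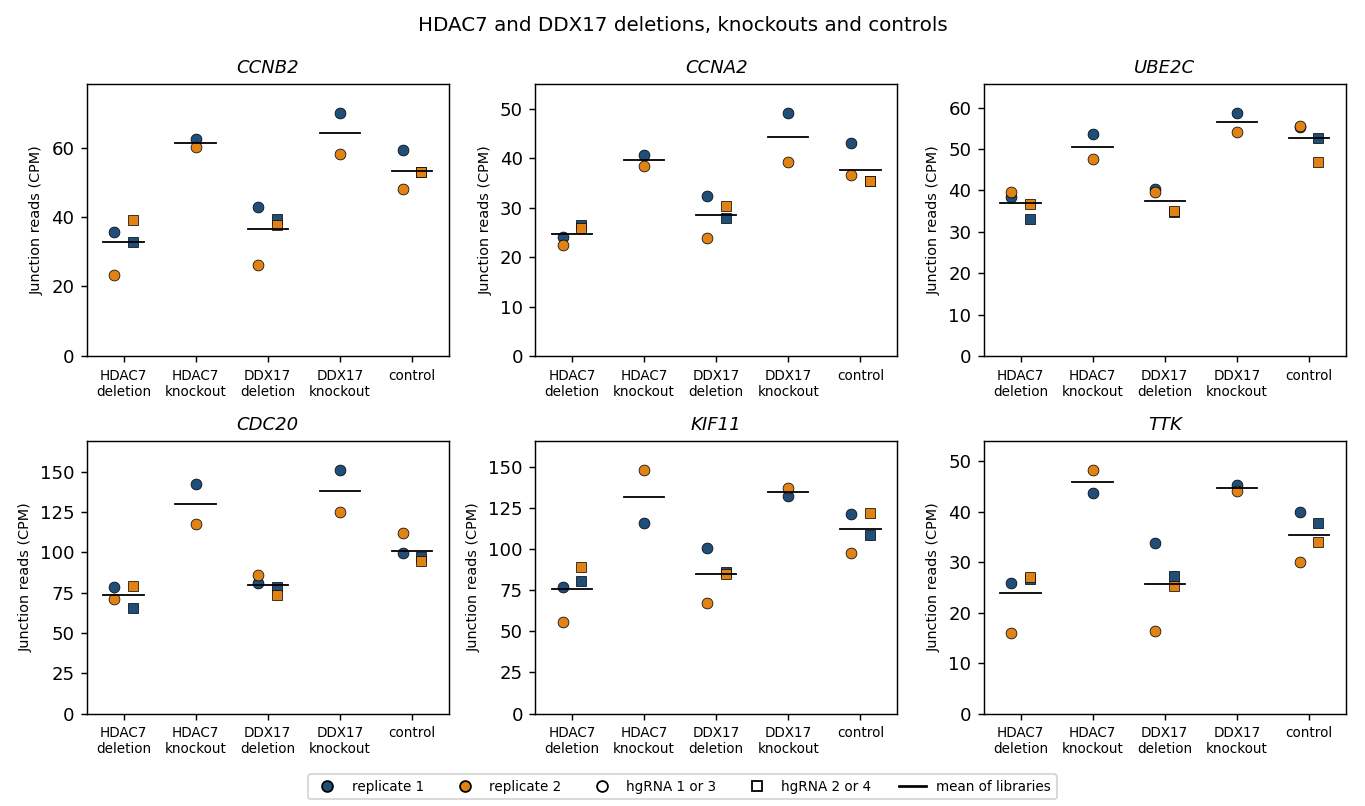
Expression in CPM (vertical axes) of CCNB2, CCNA2, UBE2C, CDC20, KIF11 and TTK in single libraries of the HDAC7 deletion, HDAC7 knockout, DDX17 deletion, DDX17 knockout and controls; black lines are means. For CCNB2 the deletions (23.3 to 43.0 CPM) lie below both knockouts (58.1 to 70.0 CPM).

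Against the controls the knockouts of DDX17 and HDAC7 showed few calls in the reported fit. In the DDX17 knockout 34 of 38 changes were positive with a median of 0.22, 15 genes lay above all controls (15.3% of all genes did) and 2 rose, TPX2 and AURKB, where 0.762% of all genes were called higher and 1% lower. TPX2, which activates AURKA on the spindle and nucleates microtubules, had 314 and 316 CPM, against 243, 230, 217 and 228 CPM in controls (log2 change 0.46 ± 0.09 SE, adjusted p = 0.00582, limma). AURKB, the kinase of the chromosomal passenger complex, had 61.7 and 59.9 CPM, against 41.4, 49.5, 42.4 and 41.7 CPM in controls (log2 change 0.48, adjusted p = 0.0405, limma). Both genes were above every control in both libraries.

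In libraries labelled HDAC7 knockout 31 of 38 changes were positive with a median of 0.17, 12 genes lay above all controls (18.2% of all genes did) and 1 rose, TPX2, where 3.43% of all genes were called higher and 3.07% lower. TPX2 had 320 and 335 CPM (log2 change 0.51 ± 0.09 SE, adjusted p = 0.00113, limma). In libraries labelled FNBP4 knockout TPX2, with 284 and 274 CPM, was also the only gene to rise (log2 change 0.28, adjusted p = 0.0454, limma), 4.54% of all genes were called higher and 3.67% lower, and 22 of 38 changes were negative. In the HDAC7 and FNBP4 knockouts the single call among the 38 genes was below the share of all genes called higher. TPX2 lay above all controls in these 2 knockouts and in the DDX17 knockout, and its 241 and 261 CPM in the DDX5 knockout overlapped them. Of all genes 15.3%, 18.5% and 18.2% also lay above every control in the DDX17, FNBP4 and HDAC7 knockouts. This was not particular to knockouts: TPX2 was also above all controls in every FNBP4 intron deletion library (254 to 291 CPM) and in both libraries of DDX5 deletion hgRNA 1 (272 and 281 CPM). These counts rest on few libraries: without the 4 knockout replicate 1 libraries 0 genes were called in the DDX17 and FNBP4 knockouts, while TPX2 was still called in the HDAC7 knockout (log2 change 0.55). The DDX17 knockout count was 0 without either of its libraries and 1 without either control hgRNA 2 library, the FNBP4 knockout count was 0 without its replicate 1 or any 1 control library, and the HDAC7 knockout count was 2 without its replicate 2 or control hgRNA 1 replicate 1. TPX2 was no longer called in the FNBP4 knockout without replicate 2 either, where another gene was.

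The DDX5 knockout had 4 genes lower and none higher than controls (4.11% of all genes were called lower and 5.89% higher). 35 of 38 changes were negative, with a median of -0.23, and 15 genes lay below all controls, as did 17.9% of all genes. BUB1 had 49.6 and 61.2 CPM, against 72.9 to 90.2 CPM in controls (log2 change -0.56, adjusted p = 0.0199, limma), and FOXM1 had 25.5 and 26.04 CPM, against 36.1 to 39.8 CPM in controls (log2 change -0.55, adjusted p = 0.0129, limma). CDK1 (16.5 and 19.8 CPM) and UBE2C (39.7 and 41.3 CPM) were also below all controls, with log2 changes of -0.48 and -0.38. FOXM1 was the only gene called in the DDX5 deletion, with 28.5, 31.2, 25.7 and 28.5 CPM (log2 change -0.41 ± 0.11 SE, adjusted p = 0.0124, limma), where 9.68% of all genes were called lower and 7.22% higher. In that deletion the other genes were split, 23 of 38 with negative changes and a median of -0.03, and hgRNA 1 by itself had TPX2 and ANLN higher (4.69% of all genes were called higher and 6.51% lower) while hgRNA 2 had FOXM1 lower (2.85% higher and 3% lower). Set directly against the DDX5 knockout, the DDX5 deletion had 1 gene higher, BUB1 (79.8 ± 8.16 CPM in the deletion, 55.4 ± 8.21 CPM in the knockout, SD, n = 4 and 2; log2 change 0.53, adjusted p = 0.043, limma; 1.76% of all genes were called higher and 2.66% lower). That call was lost without any 1 of the 4 deletion libraries or without knockout replicate 1. The 4 DDX5 knockout calls fell to 0 without replicate 1 and to 1 without control hgRNA 1 replicate 1. In the deletion 0 genes were called when control hgRNA 2 replicate 1 or the replicate 1 library of either deletion hgRNA was left out.

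In every knockout the longest transcripts of the set differed between the 2 replicates far more than the other genes. CENPE, a kinetochore motor with a longest transcript of 8.61 kb, had 7.73, 13.8, 14.5 and 12.3 CPM in replicate 1 of the DDX5, DDX17, FNBP4 and HDAC7 knockouts and 53.0, 66.7, 62.9 and 71.9 CPM in replicate 2, against 48.5 to 66.0 CPM in controls. CENPF, a kinetochore protein of 10.3 kb, had 35.6 to 56.6 CPM in replicate 1 and 99.1 to 159 CPM in replicate 2, against 90.5 to 115 CPM in controls. MKI67, of 12.7 kb, had 35.5, 46.3, 41.5 and 40.2 CPM in replicate 1 and 98.1, 153, 110 and 127 CPM in replicate 2, against 75.5 to 103 CPM in controls. Replicate 1 lay below the controls and replicate 2 within or above them for all 3 genes. The log2 changes of CENPE were -1.51, -0.88, -0.87 and -0.91 in the DDX5, DDX17, FNBP4 and HDAC7 knockouts, none of them called, so the means of these 3 genes describe neither replicate. Across the 38 genes the Spearman correlation between transcript length and the difference of replicate 1 minus replicate 2 was -0.31, -0.34, -0.55 and -0.46 in the 4 knockouts, and across 11686 genes it was -0.07, -0.26, -0.16 and -0.30; genes share their libraries and are not independent. Exon-intron reads were also lower in these replicate 1 libraries. The part of either in the knockout results was not tested.

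**Figure D4:**
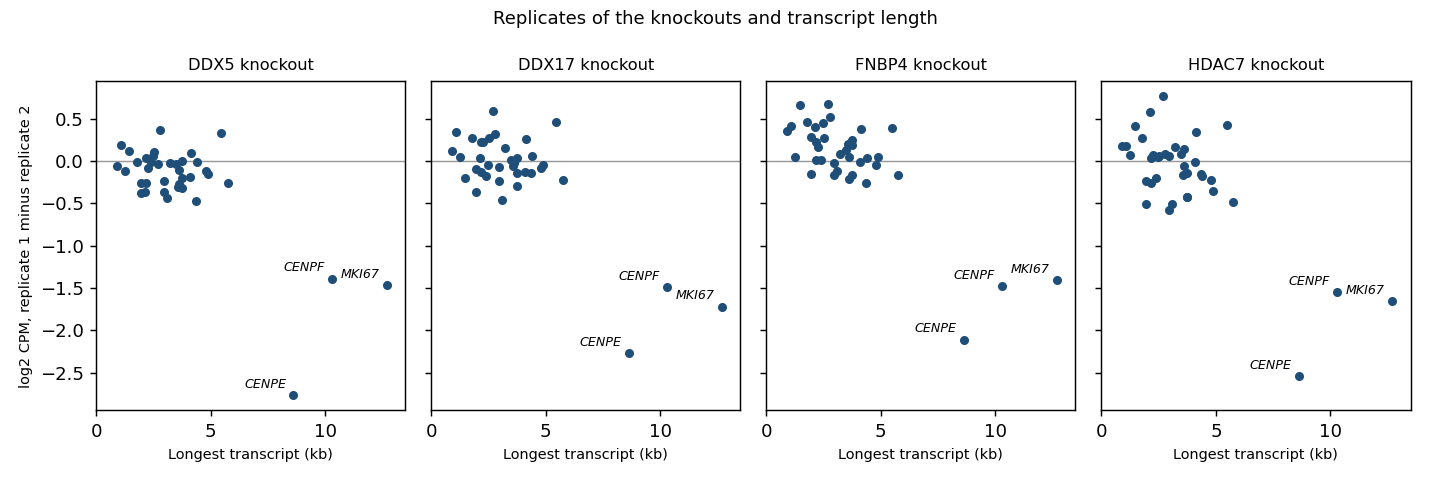
Difference in log2 CPM between replicate 1 and replicate 2 of each knockout (vertical axis) against the length of the longest transcript in kb (horizontal axis), a point per gene, 38 genes per panel. CENPE, CENPF and MKI67, at 8.61, 10.3 and 12.7 kb, lie apart below the other genes in all 4 panels.

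The intronic HNRNPD deletion had 3 genes lower and none higher than controls (4.32% of all genes were called lower and 4.55% higher). AURKA had 31.5 and 34.7 CPM, against 42.3 to 52.9 CPM in controls (log2 change -0.54, adjusted p = 0.0171, limma). ANLN had 194 and 189.4 CPM, against 228 to 289 CPM in controls, and ECT2, the exchange factor that starts the cleavage furrow, had 78.1 and 78.8 CPM, against 96.3 to 115 CPM in controls (log2 changes -0.43 and -0.42, adjusted p of 0.03 and 0.0266, limma). All 3 were below every control in both libraries, and both genes listed for cytokinesis were among them. Across the 38 genes 32 changes were negative with a median of -0.24, and 21 genes lay below all controls, against 19% of all genes. CCNB2 (59.2 and 55.7 CPM) and FOXM1 (38.2 and 44.2 CPM), both called in the HDAC7 and DDX17 deletions, were within or above the control range here. The count was 0 without either HNRNPD library and also 0 when control hgRNA 2 replicate 2 was dropped. It was 1 when control hgRNA 1 replicate 1 was dropped and 10 when 3 replicate 2 libraries including a control were left out.

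The edits of FNBP4, a formin-binding protein, gave mixed directions. In the intron deletion limma called 0 genes (2.25% of all genes were called lower and 1.27% higher), 2 were higher and 1 lower at an unadjusted p under 0.05, 29 of 38 changes were positive with a median of 0.08, and the 2 genes with the smallest p were TPX2 (log2 change 0.24, adjusted p = 0.0604, limma) and PRC1 (0.25, adjusted p = 0.073, limma). Neither hgRNA of that deletion had a called gene (0.919% and 0.323% of all genes were called lower and 0.596% and 0.315% higher), with 2 and 0 higher and 1 and 1 lower at an unadjusted p under 0.05 for hgRNAs 1 and 2. In the PTC exon deletion 4 genes fell and 1 rose, where 13% of all genes were called lower and 13.9% higher, so the share of the 38 genes was near or below that of all genes. AURKB had 37.1, 30.1, 27.4 and 27.6 CPM, against 41.4, 49.5, 42.4 and 41.7 CPM in controls (log2 change -0.53 ± 0.10 SE, adjusted p = 0.000663, limma), and was called in each of hgRNAs 3 and 4. By itself hgRNA 3 had 3 genes lower, AURKB, CENPA and UBE2C, and TTK higher (11.2% of all genes were called lower and 12.4% higher), and hgRNA 4 had AURKB lower (5.07% lower and 5.53% higher). CENPA had 2.74, 5.66, 5.36 and 5.57 CPM, against 6.40 to 8.25 CPM in controls (log2 change -0.62, adjusted p = 0.0118, limma). UBE2C and MAD2L1, a checkpoint protein, fell by 0.34 and 0.38, the second with overlapping ranges. TOP2A rose, with 615, 480, 514 and 517 CPM, against 401 to 449 CPM in controls (log2 change 0.33, adjusted p = 0.0347, limma).

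The hgRNA 3 replicate 1 library of this deletion stood apart, with 84.5 CPM of TTK against 37.4 to 38.8 CPM in the other 3, 174 CPM of KIF11 against 112 to 121 CPM, and the 2.74 CPM of CENPA given above. Without that library 3 genes were called lower and none higher, and neither CENPA (log2 change -0.40) nor TOP2A (0.22) was called. Without control hgRNA 2 replicate 1 the count was 2, and without hgRNA 4 replicate 1 it was 3. Directly compared, the PTC exon deletion had 6 genes lower and 1 higher than the intron deletion of the same gene (14.3% of all genes were called lower and 16.4% higher). Here too the share of the set was near that of all genes for lower calls and below it for higher calls. AURKB averaged 30.6 ± 4.54 CPM in the PTC exon deletion and 45.7 ± 2.65 CPM in the intron deletion (SD, n = 4 each; log2 change -0.59, adjusted p = 0.000104, limma), AURKA 39.7 ± 0.93 and 54.2 ± 2.47 CPM (log2 change -0.45, adjusted p = 0.00368, limma), ANLN and CDC20 were lower by -0.35 and -0.30, and CCNB2 was higher by 0.35 (adjusted p = 0.0472, limma). Leaving out libraries singly gave 3 to 8 calls, with 4 without intron deletion hgRNA 1 replicate 2, without either intron deletion hgRNA 2 library or without PTC exon deletion hgRNA 4 replicate 2, and 3 without PTC exon deletion hgRNA 4 replicate 1.

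Against libraries labelled FNBP4 knockout, the PTC exon deletion had 6 genes lower and 3 higher (15.3% of all genes were called lower and 15.4% higher). The share of the set was thus near that of all genes for lower calls and below it for higher calls. AURKB (30.6 ± 4.54 CPM in the deletion, 48.1 ± 0.98 CPM in the knockout; log2 change -0.67, adjusted p = 0.000268, limma), MAD2L1 (-0.60), PLK1 (68.3 ± 11.1 and 100 ± 18.3 CPM; -0.55) and ANLN (-0.37) had the largest negative changes. TOP2A (532 ± 58.3 and 326 ± 25.8 CPM; log2 change 0.70, adjusted p = 0.000486, limma), DLGAP5, a spindle microtubule protein (0.55), and CCNB2 (0.47) were higher. Without knockout replicate 1 the count was 2, and without PTC exon deletion hgRNA 4 replicate 1 or replicate 2 it was 5 or 6.

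Other cell cycle genes were counted from 7 fixed lists in the same fit. Of 35 DNA replication and G1/S genes, 26 fell in the FNBP4 PTC exon deletion and 17 in the HNRNPD deletion, with none higher and medians of -0.42 and -0.45. Of the 38 mitotic genes 4 and 3 fell in those edits, and of all genes tested 13% and 4.32%. The smallest p of the replication list in the FNBP4 PTC exon deletion were those of E2F1 (log2 change -1.41), CDC6 (-0.82) and CDC45 (-0.77), and in the HNRNPD deletion those of ORC1 (-0.91), RFC4 (-0.75) and CCNE2 (-1.10). The same list had 6 lower in the HDAC7 deletion, 8 lower in the DDX17 deletion, 8 lower in the DDX5 knockout, and 3 higher in each of the DDX17 and HDAC7 knockouts, MCM6 and MCM7 in both. Of all genes 0.861%, 2.72% and 4.11% were called lower in the HDAC7 deletion, DDX17 deletion and DDX5 knockout. In the DDX17 and HDAC7 knockouts 0.762% and 3.43% were called higher. The list had 4 lower and 1 higher in the DDX5 deletion, 1 lower in the FNBP4 intron deletion and 2 higher in the FNBP4 knockout. These counts were near or below the shares of all genes. Those were 9.68% lower and 7.22% higher in the DDX5 deletion, 2.25% lower in the FNBP4 intron deletion and 4.54% higher in the FNBP4 knockout. ORC1, a subunit of the origin recognition complex, had a log2 change of -0.85 in the HDAC7 deletion (6.21 CPM in the deletion, 11.1 CPM in controls, adjusted p = 0.000322, limma) and -0.57 in the DDX17 deletion. MCM4, a subunit of the replicative helicase, fell by 0.57 in the HDAC7 deletion and by 0.45 in the DDX17 deletion.

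Of 13 tested condensin and chromosome structure genes, 4 each fell in the HDAC7, DDX17 and FNBP4 PTC exon deletions, 2 in the HNRNPD deletion and 1 each in the DDX5 deletion and DDX5 knockout, while 2 rose in the FNBP4 PTC exon deletion and 1 in the HDAC7 knockout. The condensin subunits NCAPG (log2 changes -0.58 and -0.47) and NCAPH (-0.49 and -0.53) were among those lower in both the HDAC7 and the DDX17 deletion. Of 28 other spindle and kinesin genes 5 fell in each of these deletions, KIFC1 and FAM83D in both, 4 fell in the FNBP4 PTC exon deletion and 2 each in the HNRNPD deletion and DDX5 knockout. In the same list 1 rose in each of the FNBP4 PTC exon and DDX5 deletions and the DDX17 and HDAC7 knockouts. Of 17 genes of entry control 3 each fell in the HDAC7, DDX17 and HNRNPD deletions, 5 in the FNBP4 PTC exon deletion, 2 in the DDX5 knockout, and 1 each in the DDX5 and FNBP4 intron deletions and the FNBP4 and HDAC7 knockouts, with 1 higher in each of the DDX5 deletion and HDAC7 knockout. LMNB1 (-0.57 and -0.50) and WEE1, the inhibitory kinase of CDK1 (-0.38 and -0.45), were among those lower in the HDAC7 and DDX17 deletions. Of 35 tested other kinetochore genes 10 each fell in the FNBP4 PTC exon and HNRNPD deletions, where 2 and 0 rose, 4 each in the HDAC7 deletion and DDX5 knockout and 1 in the DDX17 deletion, and 1 rose in the DDX5 deletion. Of 21 anaphase-promoting complex genes 1 fell in each of the HDAC7 and DDX17 deletions, UBE2D1, 4 in the FNBP4 PTC exon deletion, 3 each in the HNRNPD and DDX5 deletions, 2 in the DDX5 knockout and 1 in the HDAC7 knockout, and 1 rose in the DDX5 deletion. Among all genes tested, 0.861% were called lower in the HDAC7 deletion, 2.72% in the DDX17 deletion and 13% in the FNBP4 PTC exon deletion. The lower share was 4.32% in the HNRNPD deletion, 9.68% in the DDX5 deletion and 2.25% in the FNBP4 intron deletion. It was 4.11%, 3.67% and 3.07% in the DDX5, FNBP4 and HDAC7 knockouts. Called higher were 13.9% in the FNBP4 PTC exon deletion, 7.22% in the DDX5 deletion, and 0.762% and 3.43% in the DDX17 and HDAC7 knockouts. The 4 of 28 spindle genes lower and 2 of 13 condensin genes higher in the FNBP4 PTC exon deletion were near these shares. Of 21 regulators of G2/M transcription 1 fell in the HDAC7 deletion (RBL1) and 3 in the DDX17 deletion, including MYBL2, which encodes B-MYB (-0.52), while MYBL2 rose in the DDX17 knockout (0.54). The other edits had at most 1 of these regulators higher and 2 lower, apart from the FNBP4 PTC exon deletion, where 7 rose and 5 fell. CDKN1A, the CDK inhibitor p21, averaged 83.2 CPM in FNBP4 PTC exon deletion libraries, against 288 CPM in controls (log2 change -1.81, adjusted p = 2.45e-06, limma).

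Splicing of the genes was compared as the percentage of reads that include an exon or retain an intron, per event. Intron positions of the 38 genes matched GENCODE v29 on GRCh38 for 569 of 569 events. In controls 460 of 538 measured exons were above 90% inclusion and 18 lay between 10 and 90%, and 7 of 465 introns were above 10% retention. No event of these genes was called in any of 10 comparisons with controls, among 1198 to 1620 events tested. A call needed an adjusted p under 0.05 in limma with a difference of 10 percentage points. An unadjusted p under 0.05 was found for 56 to 389 events, most in the HDAC7 deletion. The test added 1 read to each side of a ratio, so an event at 0 or 100% can differ by read depth alone. These counts are therefore not counts of splicing differences. An event of TOP2A, for example, was at 0% in both the HDAC7 deletion and controls (unadjusted p = 7.59e-05, limma). The share of all events called ran from 0% to 0.0214%. Without a limit on size, 4 events passed in the DDX5 deletion (0.489% of all events) and 1 in the FNBP4 knockout (0.0569%). The 3 events with the smallest p had small differences: an exon of KIF20A (chr5:138181422-138181511) was included at 95.1 ± 4.74% in the FNBP4 knockout and 100 ± 0% in controls (adjusted p = 0.0403, limma), an exon of FOXM1 (chr12:2873977-2874525) at 99.7 ± 0.58% in the HDAC7 deletion and 100 ± 0% in controls (adjusted p = 0.431, limma), and an exon of TOP2A (chr17:40400850-40401081) at 99.8 ± 0.16% in the DDX17 deletion and 100 ± 0% in controls (adjusted p = 0.165, limma).

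An exon of PRC1 had a larger difference that was not called. This 39-base exon (chr15:90969079-90969117, minus strand) was included at 20.9 and 12.5% in the DDX17 knockout, against 39.9, 41.2, 32.6 and 30.8% in controls, a difference of -19.4 percentage points (adjusted p = 0.244, limma). Both libraries were below all controls. In the HDAC7 knockout it was 23.3 and 19.8%, in the FNBP4 knockout 13.9 and 27.1%, and in the DDX5 knockout 35.1 and 33.3%. Every library of the FNBP4 intron deletion (23.7 to 27.0%), the DDX5 deletion (22.5 to 30.3%) and the HNRNPD deletion (22.7 and 23.4%) also lay below all controls. The FNBP4 PTC exon deletion (24.4 to 35.4%), the HDAC7 deletion (25.5 to 35.6%) and the DDX17 deletion (21.4 to 37.9%) overlapped them. It was chosen after its values were seen.

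**Figure D5:**
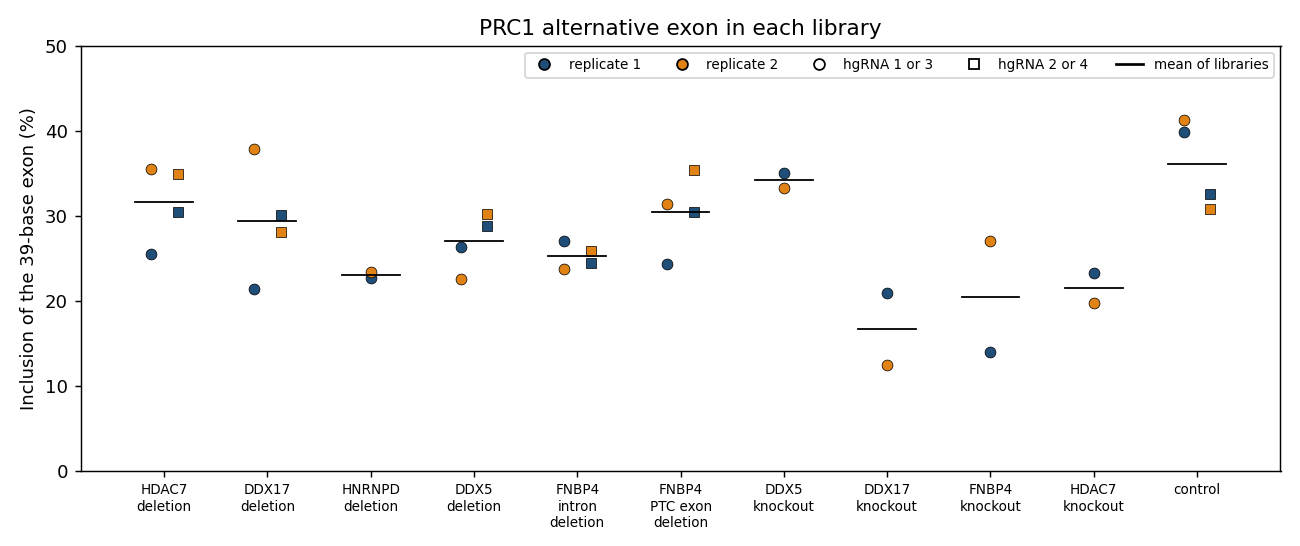
Inclusion of the 39-base exon of PRC1 in percent (vertical axis) for each library, grouped by edit with the controls at the right; black lines are means. The DDX17 knockout libraries, at 20.9 and 12.5%, lie below the controls at 30.8 to 41.2%.

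Reads across exon-intron boundaries, summed per gene over spliced reads, were tested for 36 of the 38 genes among 7624. In libraries labelled FNBP4 knockout AURKA had 0.133 and 0.368%, against 0.887 to 1.39% in controls, and HMMR, a spindle assembly factor, had 0.083 and 0.0626%, against 0.345 to 0.762% in controls (log2 ratios lower by -1.73 and -1.58, adjusted p = 0.0275 for each, limma). Both libraries were below all controls for both genes, and 2.56% of all genes had fewer intron reads in this knockout. In these libraries AURKA had 751 and 813 spliced reads and HMMR 602 and 798. The percentages of both genes there thus rest on a few exon-intron reads at most. The test added 1 read to each side of the ratio, so values this low are uncertain. No other comparison called one of the 36 genes, with 0 to 0.131% of all genes called in either direction. The changes of the 36 genes were positive for 35 in the DDX17 deletion (median 0.27, against 0.15 over all genes), 32 in the DDX5 deletion (0.66 against 0.40), 25 in the HDAC7 deletion (0.15 against -0.01), 21 in the FNBP4 intron deletion, 12 in the HNRNPD deletion and 6 in the FNBP4 PTC exon deletion. In the DDX5, DDX17, FNBP4 and HDAC7 knockouts 6, 9, 5 and 7 were positive, with medians of -0.54, -0.28, -0.49 and -0.53 against -0.62, -0.32, -0.71 and -0.54 over all genes. Over all comparisons, leaving out any 1 control library or FNBP4 knockout replicate 1 gave 0 calls, leaving out FNBP4 knockout replicate 2 gave 15, and leaving out replicate 2 of the DDX5 or HDAC7 knockout gave 6.

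The authors' deposited table gives 1 level per hgRNA group in RPKM, with fold changes against a control column whose libraries the sources do not name. Of the 38 genes 14 passed a false discovery rate (FDR) of 0.05 and were lower in HDAC7 deletion hgRNA 1 (0.573% of 22691 genes were lower) and none in hgRNA 2 (0.097%), with medians of -0.56 and -0.37 and all 38 fold changes negative in both. In DDX17 deletion hgRNAs 1 and 2 0 and 3 genes were lower (0.873% and 0.974% of genes), with 37 and 38 fold changes negative. CCNB2 had 13.3 and 15.7 RPKM in HDAC7 deletion hgRNAs 1 and 2 and 23.7 RPKM in the control column of the authors' deposited table, with FDR of 0.0103 and 0.365. In the DDX17 knockout 3 genes were higher (0.67% of genes), AURKB, CDC20 and TPX2, and in the HDAC7 knockout 2, PRC1 and TPX2 (2.09%). TPX2 had 43.2 RPKM in the DDX17 knockout and 45.2 RPKM in the HDAC7 knockout, against 34.2 RPKM in the control column of the authors' deposited table. In the HNRNPD deletion 4 were lower (2.73%), CDK1, AURKA, MAD2L1 and KIF2C, of which AURKA was also called from junction reads. In the DDX5 knockout 2 were lower (2.67%), CDK1 and FOXM1, both also called from junction reads. The FNBP4 PTC exon deletion had 3 lower in hgRNA 3 (8.45%) and 1 in hgRNA 4 (4.02%), and AURKB, at 23.9 and 19.6 RPKM against 36.4 RPKM in the control column of the authors' deposited table, was among them in both.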

How the data were processed

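The 34 libraries were made from ribosome-depleted RNA with a stranded kit, per the labels' protocols. The authors deposited a junction table that lists, per splicing event and library, a percent inclusion or retention value and a quality score string with read counts. The authors also deposited a table of RPKM with log2 fold changes and FDR (q-value) per hgRNA group; Salmon 1.10 and edgeR are named in the submitters' processing notes. The aligner and genome build of these tables are not stated in the labels, and 2 library columns of the junction table were not used because no label matched them. A table of the authors' splicing comparisons was not used.

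Spliced reads of intron events, read from the quality strings (100% of values were whole numbers), were summed per gene, scaled by trimmed mean of M-values (own implementation) and tested with limma 3.58.1 (voom, R 4.3.3), with 1 coefficient per hgRNA, 17 residual and 5.83 prior degrees of freedom and Benjamini-Hochberg adjustment. Genes needed a count of 10 at median depth in 2 libraries and 15 in total. Events needed 20 reads in every library compared and were tested as log2 ratios with a pseudocount of 1, and intron reads per gene needed 100 reads. Nothing states that duplicates came from separate transductions, and p-values measure the spread between the 2 libraries of an hgRNA, pooled over the 17 groups. The spread between hgRNAs of the same edit, or between the control hgRNAs, does not enter them. The gene fit and the event ratio fit were run on simulated data with known changes, and the other steps were not. Simulated events had mostly intermediate inclusion and the same depth in every library, so they do not cover events at the extremes.

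The 38 genes and all other lists were chosen with earlier results of these data known. Named were, per comparison, up to 4 called genes in each direction with the largest change, or the 2 with the smallest p where none was called, up to 3 called genes of each other list with the smallest p, the 3 events with the smallest p, and per-library values of 8 core genes; further called genes and the library values beside them were chosen after their values were seen. Alternatives covered scaling, filters, a GC and length trend, the controls used, the libraries fitted, a replicate block and leaving out single libraries. Figures were drawn with matplotlib 3.10.9 in Python 3.11.15.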

Additional observations from a re-analysis of the deposited data

Results flagged for a closer look

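In each group of 4 libraries the gap between an extreme library and its nearest neighbour, as a share of the range of the group, was compared with Dixon's 95% critical value. Of 150 sets of values 17 exceeded it (11.3%), where chance gives about 1 in 20; sets that share a library are not independent. Most were values of FNBP4 PTC exon deletion hgRNA 3 replicate 1. Its summed expression of the 38 genes was 3916 CPM, against 3073 to 3161 CPM in the other 3 libraries (share 0.896). In the same library BUB1 was highest at 94.0 CPM, against 81.2 to 83.0 CPM (0.865), CCNA2 at 39.5 CPM, against 33.3 to 33.6 CPM (0.94), CDCA8 at 43.1 CPM, against 22.3 to 25.8 CPM (0.834), and DLGAP5 at 130 CPM, against 99.03 to 104 CPM (0.831). KIF11 was highest there at 174 CPM, against 112 to 121 CPM (0.852), TPX2 at 287 CPM, against 216.4 to 224 CPM (0.896), and TTK at 84.5 CPM, against 37.4 to 38.8 CPM (0.971). CENPA was lowest there at 2.74 CPM, against 5.36 to 5.66 CPM (0.898).

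The exon-intron share of all junction reads was highest in DDX17 deletion hgRNA 1 replicate 2 (3.04%, share of the range 0.885), in HDAC7 deletion hgRNA 1 replicate 2 (2.77%, 0.906) and in FNBP4 PTC exon deletion hgRNA 3 replicate 2 (2.47%, 0.837). TTK was lowest in HDAC7 deletion hgRNA 1 replicate 2 at 15.9 CPM, against 25.8 to 27.0 CPM (0.892), and MAD2L1 was lowest in HDAC7 deletion hgRNA 2 replicate 2 at 18.1 CPM, against 19.8 to 20.1 CPM (0.834). NUSAP1 was highest in FNBP4 intron deletion hgRNA 1 replicate 2 at 45.2 CPM, against 38.1 to 38.7 CPM (0.913). Among controls AURKB was highest in hgRNA 1 replicate 2 at 49.5 CPM, against 41.4 to 42.4 CPM (0.872), and CCNA2 in hgRNA 1 replicate 1 at 43.2 CPM, against 35.3 to 36.6 CPM (0.843).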

How the results depend on the processing

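Among values of named genes, all of them chosen because they were called in these data, 515 kept their call and direction under an alternative, 228 kept the direction without the call and 0 reversed. Over all 38 genes and all settings the number of negative changes was 16 to 28 for DDX5 deletion, 36 to 38 for DDX17 deletion, 5 to 16 for FNBP4 intron deletion, 15 to 26 for FNBP4 PTC exon deletion, 38 for HDAC7 deletion, 30 to 36 for HNRNPD deletion, 28 to 38 for DDX5 knockout, 1 to 6 for DDX17 knockout, 17 to 27 for FNBP4 knockout and 5 to 14 for HDAC7 knockout. As reported, the counts of called genes were 1 for DDX5 deletion, 7 for DDX17 deletion, 0 for FNBP4 intron deletion, 5 for FNBP4 PTC exon deletion, 17 for HDAC7 deletion, 3 for HNRNPD deletion, 4 for DDX5 knockout, 2 for DDX17 knockout, 1 for FNBP4 knockout, 1 for HDAC7 knockout, 7 for FNBP4 PTC exon deletion against FNBP4 intron deletion, 1 for DDX5 deletion against DDX5 knockout, 29 for DDX17 deletion against DDX17 knockout, 9 for FNBP4 PTC exon deletion against FNBP4 knockout, 26 for HDAC7 deletion against HDAC7 knockout, 0 for splicing events and 2 for genes with changed intron reads. The settings that moved a count by more than 1.5 times follow, and the cause was not tested. Counts add both directions, so a setting that exchanged a lower call for a higher one is not among them. With the trend on GC content and length removed the DDX5 deletion had 1 gene higher and 0 lower, against 0 and 1 as reported. With median-of-ratios scaling the count was 0 for FNBP4 knockout. With no scaling factor the count was 13 for DDX17 deletion, 10 for DDX5 knockout, 0 for FNBP4 knockout and 7 for DDX5 deletion against DDX5 knockout. With no filter on low counts the count was 1 for FNBP4 intron deletion, 2 for HDAC7 knockout and 0 for DDX5 deletion against DDX5 knockout. With a limma intensity trend the count was 2 for HDAC7 knockout. With a trend on GC content and length removed the count was 14 for DDX17 deletion, 2 for FNBP4 intron deletion, 8 for FNBP4 PTC exon deletion, 5 for HNRNPD deletion, 7 for DDX5 knockout, 6 for DDX17 knockout, 6 for FNBP4 knockout, 10 for HDAC7 knockout and 4 for DDX5 deletion against DDX5 knockout. Against control hgRNA 1 alone the count was 3 for DDX17 deletion, 3 for FNBP4 PTC exon deletion, 8 for HDAC7 deletion, 0 for HNRNPD deletion, 0 for DDX17 knockout and 0 for FNBP4 knockout. Against control hgRNA 2 alone the count was 0 for DDX5 deletion, 0 for DDX17 deletion, 1 for FNBP4 PTC exon deletion, 0 for HDAC7 deletion, 1 for HNRNPD deletion, 0 for DDX5 knockout, 1 for DDX17 knockout and 0 for FNBP4 knockout. In fits restricted to the libraries compared and the controls the count was 9 for DDX5 deletion, 0 for DDX17 deletion, 3 for FNBP4 intron deletion, 2 for FNBP4 PTC exon deletion, 0 for HDAC7 deletion, 2 for DDX5 knockout, 0 for DDX17 knockout, 0 for FNBP4 knockout, 0 for HDAC7 knockout, 8 for DDX5 deletion against DDX5 knockout, 5 for DDX17 deletion against DDX17 knockout and 8 for HDAC7 deletion against HDAC7 knockout. Without replicate 2 of hgRNA 1 of the control, the DDX17 deletion and the HDAC7 deletion the count was 2 for DDX5 deletion, 4 for DDX17 deletion, 10 for HNRNPD deletion, 9 for DDX5 knockout and 4 for HDAC7 knockout. Without the 4 knockout replicate 1 libraries (chosen after seeing the data) the count was 0 for DDX5 knockout, 0 for DDX17 knockout, 0 for FNBP4 knockout, 0 for DDX5 deletion against DDX5 knockout, 13 for DDX17 deletion against DDX17 knockout, 2 for FNBP4 PTC exon deletion against FNBP4 knockout and 11 for HDAC7 deletion against HDAC7 knockout. With a minimum of 10 reads the count was 1 for splicing events. Leaving out 1 library at a time gave counts of 0 to 2 for DDX5 deletion, 1 to 17 for DDX17 deletion, 0 to 1 for FNBP4 intron deletion, 2 to 7 for FNBP4 PTC exon deletion, 4 to 21 for HDAC7 deletion, 0 to 4 for HNRNPD deletion, 0 to 3 for DDX5 knockout, 0 to 2 for DDX17 knockout, 0 to 1 for FNBP4 knockout, 1 to 2 for HDAC7 knockout, 3 to 8 for FNBP4 PTC exon deletion against FNBP4 intron deletion, 0 to 1 for DDX5 deletion against DDX5 knockout, 8 to 33 for DDX17 deletion against DDX17 knockout, 2 to 11 for FNBP4 PTC exon deletion against FNBP4 knockout, 9 to 30 for HDAC7 deletion against HDAC7 knockout, 0 to 1 for splicing events and 0 to 15 for genes with changed intron reads; where that left 1 library of a group, it was assumed to vary like the others. Depth limits the event tests, since an event needs 20 reads in every library.

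Replicate numbers were shared across groups, and the labels used here do not say what they mark. The differences between replicates 2 and 1 correlated above 0.1 in 37 of 136 group pairs, with a median of -0.02. They correlated at 0.45 to 0.66 in all 6 pairs of knockouts, and at 0.73, 0.70 and 0.82 among hgRNA 1 of the control, the DDX17 deletion and the HDAC7 deletion, so same-numbered libraries of these groups deviated together; between knockouts and controls the values were -0.26 to 0.25. Not every pair was above 0.1, and the reported fit has no block. With the replicate number as a block the counts were 8 for DDX17 deletion, 4 for HNRNPD deletion, 3 for DDX17 knockout, 28 for HDAC7 deletion against HDAC7 knockout, and unchanged at 1 for DDX5 deletion, 0 for FNBP4 intron deletion, 5 for FNBP4 PTC exon deletion, 17 for HDAC7 deletion, 4 for DDX5 knockout, 1 for FNBP4 knockout, 1 for HDAC7 knockout, 7 for FNBP4 PTC exon deletion against FNBP4 intron deletion, 1 for DDX5 deletion against DDX5 knockout, 29 for DDX17 deletion against DDX17 knockout, 9 for FNBP4 PTC exon deletion against FNBP4 knockout, 0 for splicing events, 2 for genes with changed intron reads.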
